A study of Schizosaccharomyces pombe with 3 samples.

Results

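The meu genes are Schizosaccharomyces pombe genes named for being up-regulated in meiosis, and their occupancy by Ssn6 in growing, non-meiotic cells was read from a chromatin immunoprecipitation series on microarrays. A feature belonged to the set when its name on the array, without its intergenic prefix, was meu and a number, or when its systematic name carried a meu symbol in the RefSeq annotation. No measured value entered that naming rule, although the set was chosen with earlier results of these data known. It gave 38 features of 10213 on the array, 21 of them intergenic and 17 coding, for 21 genes, of which 17 had a feature of both kinds. The names meu5 and meu8 occurred only on intergenic features, whose genes are now called crp79 and atd3, and meu23 and meu27 also had an intergenic feature alone. Of the 24 meu symbols in the annotation, 5 had no feature matched, and all 5 are annotated as long non-coding RNAs. All 3 arrays held 1 group: cells with Ssn6 fused to green fluorescent protein (GFP), grown in rich YES medium to mid log phase, with DNA precipitated by a polyclonal antibody against GFP set against input DNA. The other alleles of the strain were not given in the sources used here. DNA of 3 separate experiments had been amplified before labelling, and neither cells without the tag nor a mock precipitate were analysed here.

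Ssn6 is a tetratricopeptide-repeat protein that works with the Tup11 and Tup12 proteins as a corepressor: DNA-binding factors bring the complex to a promoter, where it keeps transcription low. In fission yeast, nitrogen starvation and mating lead through the factor Ste11 to meiosis, and the forkhead factor Mei4 then turns on genes of the meiotic divisions and of spore formation. Most meiotic genes are kept at low RNA levels during growth, both by repression at the promoter and by elimination of their transcripts.

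The 250 bases before the annotated start of each gene were searched on both strands for short sequences named after meiotic and stress-responsive factors. GTAAACA, the core recognised by forkhead factors such as Mei4, occurred before 11 of the 21 meu genes (52.4%), against 758 of all 5112 promoters of that length (14.8%). These were the promoters of meu5, meu6, meu7, meu14, meu17, meu23, meu25, meu26, meu29, meu31 and meu34. The related GTAAATA occurred before 4 of the 21 (19.0%), namely meu5, meu7, meu13 and meu17, against 14.4% of all promoters. TCTTTGTT, the core of the Ste11 box, TGACGT, the core of the cyclic AMP response element, and CCCCTC, the stress element, occurred before 0 of the 21 meu genes, against 2.86%, 5.52% and 1.70% of all promoters. None of these motifs contains another, a window can reach into a neighbouring gene, and many meu genes have no 5′ untranslated region annotated, so that their window starts at the coding sequence. These matches are a description and were not tested.

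Sequences are shown for the promoter of meu10, which gave the largest ratios among the meu features, for that of xks1, which faces meu15 across a shared intergenic region, and for meu23 and meu29, which have GTAAACA in a short gap to the neighbouring gene. They are RefSeq sequence of build ASM294v3, written 5′ to 3′ on the gene's strand up to the base before its annotated start, with matches to GTAAACA or its reverse complement in capitals. The positions are chrIII:1870096-1870345 (minus strand, meu10), chrIII:706899-707148 (minus strand, xks1), chrIII:99548-99715 (minus strand, meu23) and chrI:2529902-2530119 (plus strand, meu29).
meu10: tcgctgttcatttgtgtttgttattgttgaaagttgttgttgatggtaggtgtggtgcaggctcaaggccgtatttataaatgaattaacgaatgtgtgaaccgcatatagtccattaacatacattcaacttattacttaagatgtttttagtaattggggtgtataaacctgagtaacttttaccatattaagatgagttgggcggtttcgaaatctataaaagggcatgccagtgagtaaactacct
xks1: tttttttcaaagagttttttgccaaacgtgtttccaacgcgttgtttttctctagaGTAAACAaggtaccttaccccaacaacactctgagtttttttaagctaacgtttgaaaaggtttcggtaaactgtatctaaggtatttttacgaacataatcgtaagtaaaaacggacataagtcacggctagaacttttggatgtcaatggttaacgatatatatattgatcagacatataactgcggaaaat
meu23: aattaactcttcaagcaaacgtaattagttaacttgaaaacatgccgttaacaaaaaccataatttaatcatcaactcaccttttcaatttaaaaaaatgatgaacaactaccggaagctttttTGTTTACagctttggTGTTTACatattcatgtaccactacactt
meu29: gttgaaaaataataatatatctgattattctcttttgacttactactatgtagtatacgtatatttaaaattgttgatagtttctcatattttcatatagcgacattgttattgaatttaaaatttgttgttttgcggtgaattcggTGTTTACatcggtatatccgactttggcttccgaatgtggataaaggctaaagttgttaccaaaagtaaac
No searched motif occurred in the meu10 window. The meu23 gap held GTAAACA 2 times, on the reverse strand.

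Values are log2 ratios of immunoprecipitate over input, centred on each array's median over feature spots with a ratio. A value of 0 thus marks the middle of those spots. The medians over all features with a ratio were 0.12, -0.01 and 0.12 on replicates 1, 2 and 3. Each array carried 22176 spots, of which 20434 were feature spots. Of these, 49.0%, 95.5% and 37.7% gave a ratio on replicates 1, 2 and 3, the rest having a signal of 0 in at least 1 channel. Ratios were formed as channel B over channel A on replicates 1 and 3 and as channel A over channel B on replicate 2. The labels name Cy5 for immunoprecipitate on all 3 arrays and state no dye swap, so the direction on replicate 2 was not settled. Across the 3960 features with a ratio on all 3 arrays, replicate 2 correlated with replicates 1 and 3 at r = 0.48 and 0.54 as turned here, and at -0.48 and -0.54 with channel B on top there too, while replicates 1 and 3 correlated at 0.72. These correlations are across features of paired arrays and carry no test. The channel turned to the top on replicate 2 is also the one that the authors' deposited values come from. With channel B on top on every array, called the uniform orientation below, every sign on replicate 2 turns, and means in that orientation are printed next to the called features.

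Among the meu features, 12 had a ratio on all 3 arrays and were tested, 3 intergenic and 9 coding. Of these 12, 1 was enriched and 0 were depleted at a limma adjusted p under 0.05, and 3 had an unadjusted p under 0.05. Over all 3960 tested features, 8.26% were enriched and 5.61% depleted. In the uniform orientation, 0% of all features were called in either direction, 138 of 3960 having an unadjusted p under 0.05. Of the 26 meu features not tested, 4 had a ratio on 2 arrays, 21 on replicate 2 alone, and the meu7 intergenic feature on none.

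The enriched feature was the coding sequence of meu10 (SPCC1223.12c, chrIII:1866916-1870095, minus strand), which encodes a cell-surface protein needed for the ascospore wall. Its log2 ratio was 1.91, 2.68 and 1.70 on replicates 1, 2 and 3. Among all features of those arrays it stood at percentiles 96.7, 99.2 and 95.1, high on each of them. The mean was 2.10 ± 0.51 (SD, n = 3), a ratio 4.27 times that of the middle spot with a ratio, with a limma adjusted p of 0.00279. The mean was 0.31 in the uniform orientation, with an adjusted p of 0.946.

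The spots behind the ratio did not overlap between channels. On replicate 1, its pair of spots read 5527 and 4669 in the immunoprecipitate, against 780 and 724 in input. On replicate 2 they read 14231 and 12658, against 2347 and 2547. On replicate 3 they read 4298 and 4565, against 1093 and 723. As turned here, every precipitated spot was brighter than every input spot of its array, and the uncentred difference was smallest on replicate 3. These intensities are uncentred. The median log2 ratio before centring was 0.85, -0.22 and 0.61 on replicates 1, 2 and 3. In the uniform orientation the channels of replicate 2 change places. The immunoprecipitate exceeded the array's limit, the 95th percentile of 1624 negative-control spots, on replicates 1 and 2, and averaged 4432 against a limit of 4452 on replicate 3. The limit on replicate 2 was only 223. Every meu feature with a ratio there exceeded it, the dimmest at 467.5, so passing on replicate 2 sets no meu feature apart. Among the 12 tested meu features, 0 exceeded the array's limit on all 3 arrays, against 11.8% of all tested features.

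**Figure D1:**
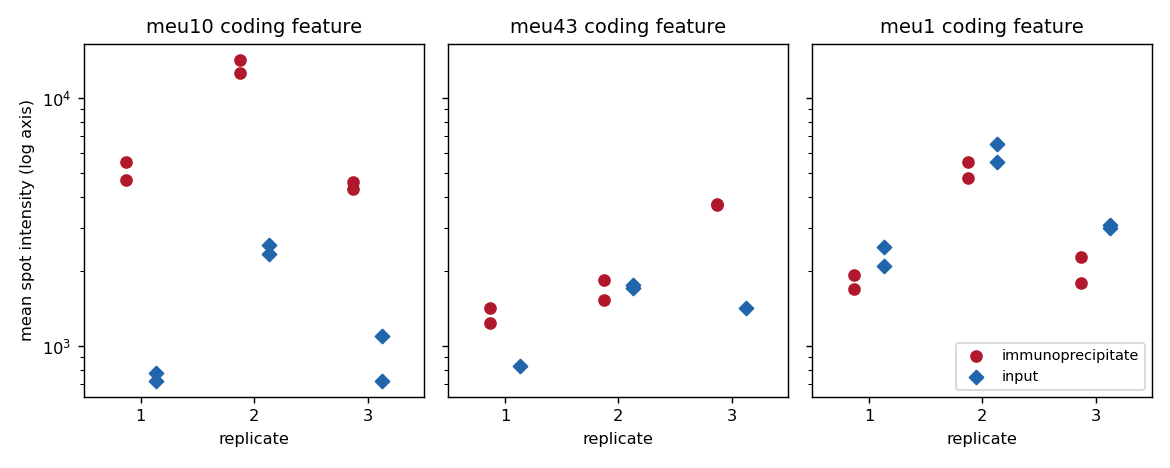
Mean spot intensity (log axis) of immunoprecipitate (red circles) and input (blue diamonds) on each array for the coding features of meu10, meu43 and meu1, with 1 point per spot and spots at 0 left out. Intensities are uncentred, with the channels of replicate 2 as turned here. At meu10 every precipitated spot is brighter than every input spot of its array, whereas at meu1 every input spot is the brighter one.

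The meu10 intergenic feature gave a ratio on replicate 2 alone, 2.23, from 1 spot of 5222 in the immunoprecipitate against 1295 in input, which placed it at percentile 98.4. On replicates 1 and 3 it had signal in the immunoprecipitate (1753 and 3398) and 0 in input, so no ratio could be formed. Both signals lay below the negative-control limits of 1959 and 4452. Its value on replicate 2 becomes -2.23 in the uniform orientation.

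Upstream, meu10 faces cbf12, a gene for a transcription factor of the CSL family, across a gap of 1271 bases. The array labels do not say on which side of a gene an intergenic feature lies. Over all genes, intergenic features of divergent neighbours, which share 1 upstream gap, correlated at r = 0.60 on replicate 2 (1081 pairs), against 0.35 for tandem (1826) and 0.22 for convergent neighbours (1089), and intergenic features are read here as upstream ones. The cbf12 intergenic feature gave 1.504, 2.35 and 2.04 on replicates 1, 2 and 3, all 3 with immunoprecipitate above the limit. Its mean was 1.96 ± 0.43 (SD, n = 3; limma adjusted p = 0.00346), and 0.40 in the uniform orientation (adjusted p = 0.931). With local background subtracted, the cbf12 intergenic feature had too few arrays for a test. The coding feature of cbf12 gave 0.45, -0.19 and 0.03, with a mean of 0.09 ± 0.33 (adjusted p = 0.851). High ratios thus stood on both features of meu10 and on the gap side of cbf12, and the coding feature of cbf12 stood near 0.

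**Figure D2:**
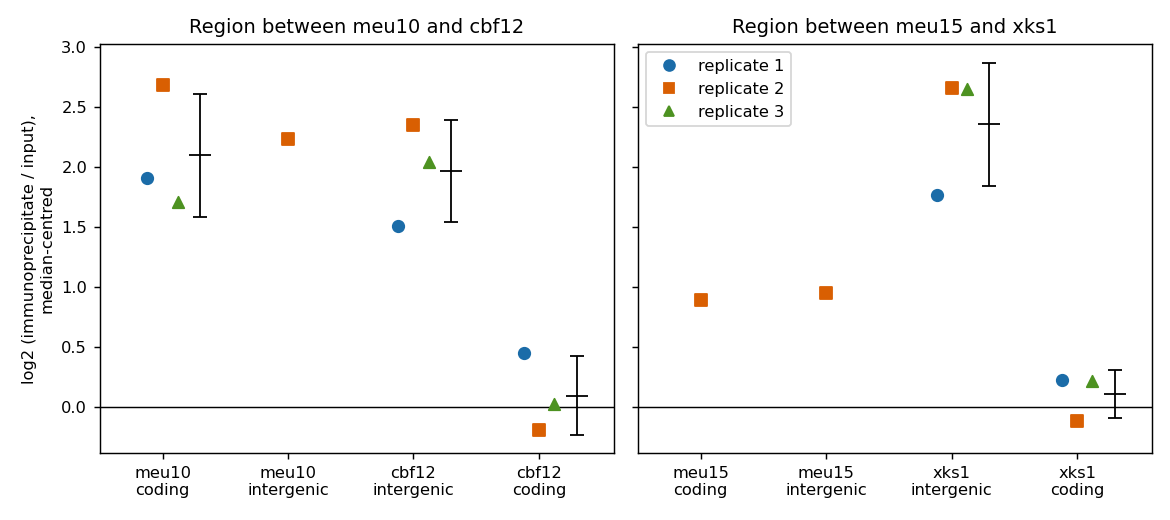
Median-centred log2 ratio of immunoprecipitate over input at the coding and intergenic features of meu10 and cbf12 (left) and of meu15 and xks1 (right), by replicate, with the mean and SD (black) where all 3 arrays gave a ratio. The cbf12 and xks1 intergenic features have means of 1.96 and 2.35, against 0.09 and 0.11 for their coding features.

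The 2nd gene with high values on both features was meu15 (SPCPJ732.03, chrIII:708340-709145, plus strand). Its intergenic feature gave 0.95 and its coding feature 0.89, both on replicate 2 alone, at percentiles 90.03 and 89.1. It faces xks1, a gene for a xylulose kinase, across 1441 bases. The xks1 intergenic feature gave 1.76, 2.65 and 2.65 on replicates 1, 2 and 3, with immunoprecipitate above the limit on each array. Its mean was 2.35 ± 0.51 (SD, n = 3; limma adjusted p = 0.00169), and 0.59 in the uniform orientation (adjusted p = 0.922). The xks1 coding feature gave 0.23, -0.12 and 0.22, a mean of 0.11 ± 0.20 (adjusted p = 0.828). The meu15 features had no test, and the enrichment measured across that gap is that of the feature named for xks1.

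At the 8 other gaps between a meu gene and a divergent neighbour, the intergenic features were either not called or had too few arrays for a test. At meu25 the intergenic feature gave 0.53 on replicate 2, and that of ask1, a gene for a subunit of the kinetochore DASH complex, gave 1.54, 0.52 and 0.90, with a mean of 0.99 ± 0.51 (limma adjusted p = 0.0619; 0.64 in the uniform orientation). At crp79, the former meu5, the intergenic feature gave -0.07 on replicate 2, and that of its neighbour mmc1 gave 0.79, 0.17 and 0.43 (mean 0.46, adjusted p = 0.314; 0.35 in the uniform orientation), so that on replicate 2 the pair stood on either side of 0. On replicate 2 alone, cgr1 gave 0.51 beside 0.41 for meu1, sey1 gave 0.50 beside 0.04 for meu13, and arc1 gave 0.21 beside 0.08 for meu17. These pairs stood on the same side of 0. Features also stood on either side of 0 at the gaps of meu22 and meu31: mcs6 gave 1.34 beside -0.12 for meu22, and sle1 gave -0.35 beside 0.83 for meu31. The neighbour of meu7 gave -0.44, beside the meu7 feature without a ratio.

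Among the other tested intergenic features, none was called, against 19.7% enriched and 0.904% depleted of all 1327 intergenic features tested. That of meu23 gave 0.88, -0.06 and 1.23 on replicates 1, 2 and 3, positive on 2 arrays and near 0 on replicate 2 (mean 0.68 ± 0.66, SD, n = 3; limma adjusted p = 0.183; 0.72 in the uniform orientation). The meu23 value on replicate 2 rests on 1 spot. The meu43 intergenic feature gave 0.63, 0.19 and 0.94, above 0 on each array as turned here. Its mean was 0.59 ± 0.38 (adjusted p = 0.205), and 0.46 in the uniform orientation. The meu1 intergenic feature gave -1.18, 0.41 and -0.75, with a mean of -0.51 ± 0.82 (adjusted p = 0.359) and -0.78 in the uniform orientation. For meu1 the arrays lay on both sides of 0, as turned here.

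Features with fewer arrays were described only. The intergenic feature of meu17, a gene for a glucosidase-like enzyme, gave 1.13 and 0.08 on replicates 1 and 2, and that of meu34 gave -0.06 and -0.66. Their values on replicate 1 each rest on 1 spot. On replicate 2 alone, the intergenic feature of meu31 gave 0.83 and that of meu32 gave 0.51. That of atd3, the former meu8, gave 0.12, and that of meu29 gave 0.09. The remaining intergenic values on replicate 2 alone lay below 0. They were -0.22 for meu14, whose protein marks the leading edge of the forespore membrane, and -0.12 for meu22, which encodes an amino acid permease. They were -0.24 for meu27, -0.27 for meu6, -0.29 for meu18 and -0.75 for meu26.

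**Figure D3:**
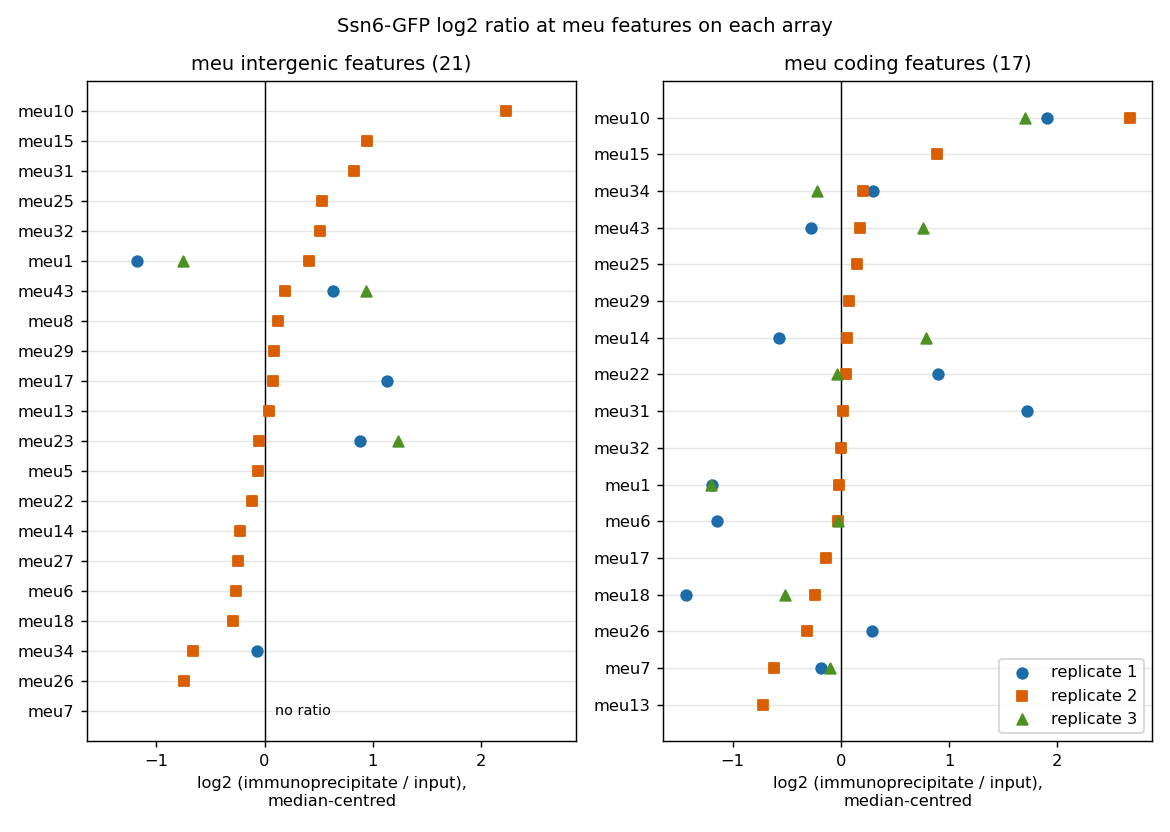
Median-centred log2 ratio of immunoprecipitate over input at each intergenic (left) and coding (right) meu feature, with 1 marker per replicate and features ordered by replicate 2. Most intergenic features have a value on replicate 2 alone, and the meu10 coding feature is the one with 3 values above 1.

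Of the 9 tested coding features, meu10 was the only one enriched, against 2.42% of all 2562 coding features tested, and 0 were depleted, against 7.96%. The 2 next highest means were those of meu22 and meu43. The coding feature of meu22 gave 0.90, 0.05 and -0.03 (mean 0.31 ± 0.52, SD, n = 3; limma adjusted p = 0.541; 0.28 in the uniform orientation). That of meu43 gave -0.27, 0.18 and 0.76 (mean 0.22 ± 0.52; adjusted p = 0.666; 0.10 in the uniform orientation). Both means were smaller than the spread between their arrays. For both features, the values on replicates 1 and 3 each rest on 1 spot.

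The 3 lowest coding means were those of meu1, meu18 and meu6. The coding feature of meu1 gave -1.19, -0.02 and -1.20 (mean -0.80 ± 0.68; limma adjusted p = 0.130; -0.79 in the uniform orientation). That of meu18 gave -1.43, -0.23 and -0.51 (mean -0.73 ± 0.63; adjusted p = 0.156; -0.57 in the uniform orientation). That of meu6, whose gene overlaps clr4, a histone methyltransferase gene, gave -1.15, -0.02 and -0.03 (mean -0.40 ± 0.65; adjusted p = 0.448; -0.38 in the uniform orientation). All 3 were below 0 on each array as turned here, yet none passed the test.

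Between these, the coding feature of meu7, a gene for an alpha-amylase homologue, gave -0.18, -0.62 and -0.10 (mean -0.30 ± 0.28; limma adjusted p = 0.517). That of meu14 gave -0.57, 0.06 and 0.79 (mean 0.09 ± 0.68; adjusted p = 0.870). Its values on replicates 1 and 3 each rest on 1 spot. On replicate 3 that spot read 36887 against 13955 in input, and its duplicate read 2135 against 0. The coding feature of meu34 gave 0.29, 0.20 and -0.22 (mean 0.09 ± 0.27; adjusted p = 0.848). The meu7 and meu34 values on replicate 3 each rest on 1 spot. The arrays of meu14 and meu34 fell on both sides of 0, and in the uniform orientation the means of meu7, meu14 and meu34 were 0.11, 0.06 and -0.04. With 2 arrays, meu31 gave 1.72 and 0.02 on replicates 1 and 2, and meu26 gave 0.29 and -0.32. Their values on replicate 1 each rest on 1 spot. On replicate 2 alone, meu13, which encodes a partner of the recombinase machinery in pairing homologous chromosomes, gave -0.72. The other values on replicate 2 alone were 0.15 for meu25, 0.07 for meu29, 0.00 for meu32 and -0.13 for meu17.

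Both features of 2 meu genes were measured on all arrays, so that the intergenic value could be set against the coding one within each array. For meu1, intergenic minus coding was 0.01, 0.43 and 0.44 on replicates 1, 2 and 3, with a mean of 0.29 ± 0.25 (SD, n = 3). For meu43 it was 0.90, 0.02 and 0.18, with a mean of 0.37 ± 0.47. As turned here, each difference was positive on 3 of 3 arrays, with a two-sided exact sign-flip permutation p of 0.25, the smallest that 3 arrays allow. In the uniform orientation both differences on replicate 2 fall below 0, and the means were 0.01 for meu1 and 0.36 for meu43. With intergenic and coding features centred separately on their own medians, both means turned to the other side of 0, -0.28 for meu1 and -0.21 for meu43. On replicate 2, where 16 meu genes had both features, the difference was above 0 in 9 and ranged from -0.86 to 0.80 with a median of 0.01, against a median of 0.20 over all 4390 genes. For meu10 it was -0.45, the coding feature having the higher ratio.

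Replicate 2 gave a ratio for 37 of the 38 meu features. On it the meu10 features stood in the upper tail and the meu15 features near percentile 90, and the medians lay close to those of all features. The 20 intergenic meu features had a median of 0.06 there, against 0.07 for all intergenic features, and 11 of the 20 were above 0. The 17 coding meu features had a median of 0.02, against -0.08 for all coding features, and 10 of the 17 were above 0. Over the tested features, the median of the 3-array means was 0.59 for 3 intergenic meu features, against 0.36 for all intergenic features, and 0.09 for 9 coding meu features, against -0.28 for all coding features. These medians were 0.46 against 0.13, and 0.06 against -0.22, in the uniform orientation. The medians over tested features hold only features bright enough on all 3 arrays.

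**Figure D4:**
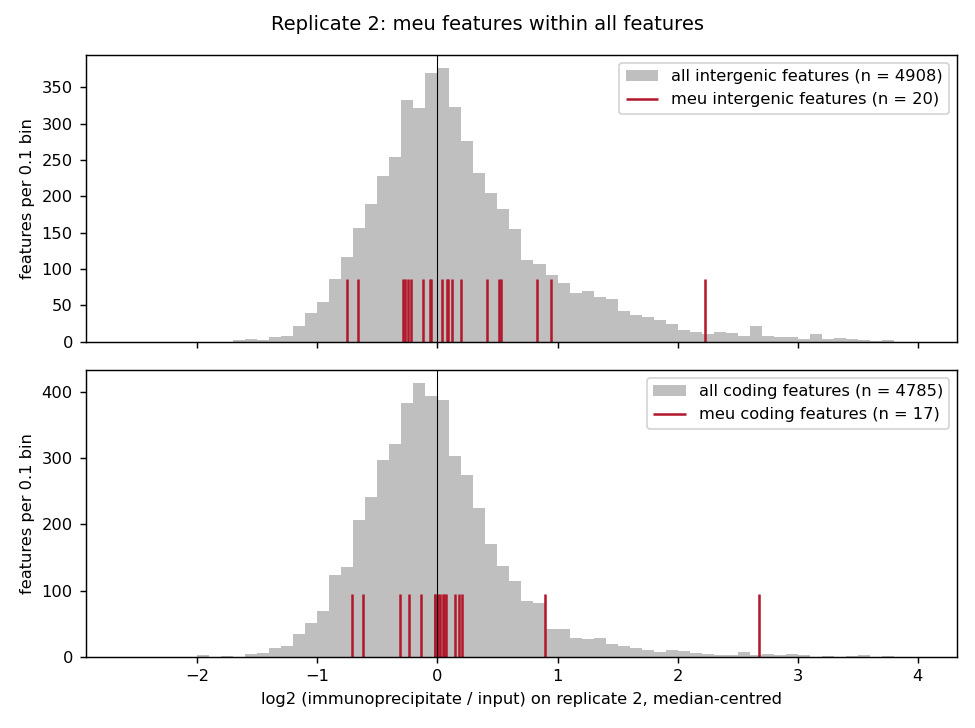
Distribution of the median-centred log2 ratio on replicate 2 over all intergenic (top) and all coding (bottom) features, in bins 0.1 wide, with the meu features as red lines. The meu10 features, at 2.23 and 2.68, stand in the upper tail, and the other meu features lie between -0.75 and 0.95.

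Fewer intergenic meu features could be tested than coding ones. A ratio on all 3 arrays was had by 14.3% of the intergenic meu features, against 25.7% of all intergenic features, and by 52.9% of the coding meu features, against 52.4% of all coding features. On replicate 1, 10 of the 21 intergenic meu features had signal only in the immunoprecipitate and 6 in neither channel. On replicate 3 these were 13 and 5. Missing ratios on those arrays were thus mostly missing input signals, and no ratio was formed from them.

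A binding list was built by the rank rule that the series text names: the median over arrays of a feature's percentile, listed from the 85th percentile. It held 5 of 37 ranked meu features (13.5%), against 11.1% of all 9856 ranked features. These 5 were both features of meu10, both of meu15 and the intergenic feature of meu31. Among intergenic features it held 3 of 20 meu features, against 17% of all, and among coding features 2 of 17, against 5.2% of all. All but the meu10 coding feature were ranked on replicate 2 alone, so that their place on the list rests on 1 array and on its orientation.

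Another 18 features, not counted above, belong to 10 genes that carry a meu number as an older name, 8 of them outside the 21 genes and the others crp79 and atd3. Of the 9 tested, 2 were intergenic and 7 coding. Enriched were 1 of the 2 intergenic and 1 of the 7 coding features, and 1 of the 7 coding features was depleted. The shares over all tested features were 19.7% enriched of intergenic ones, and 2.42% enriched and 7.96% depleted of coding ones. The coding feature of isp3 (older name meu4), which encodes a protein of the outer spore coat, gave 0.95, 1.43 and 1.15, with a mean of 1.17 ± 0.24 (SD, n = 3; limma adjusted p = 0.0274; 0.22 in the uniform orientation). The isp3 call was also lost with local background subtracted (adjusted p = 0.0727), without replicate 1 (0.0739) and without replicate 3 (0.167). Its intergenic feature gave 2.30 on replicate 2 alone, and that of hhy1, across the gap, gave 2.64 there. The intergenic feature of ght6 (meu12), a hexose transporter gene, gave 1.20, 1.74 and 1.70, with immunoprecipitate above the limit on each array and a mean of 1.55 ± 0.30 (adjusted p = 0.00911; 0.39 in the uniform orientation). The ght6 call was also lost with local background subtracted (adjusted p = 0.0555) and without replicate 3 (0.0821). On replicate 3 the ght6 intergenic value rests on 1 spot. Its divergent neighbour mug146 gave 1.38, 2.13 and 1.06 at its intergenic feature, with a mean of 1.52 ± 0.55 (adjusted p = 0.0137) and 0.10 in the uniform orientation (adjusted p = 0.982).

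The depleted feature was the coding sequence of mug97 (meu33), at -1.71, -0.71 and -2.72, below 0 on each array as turned here (mean -1.71 ± 1.00, SD, n = 3; limma adjusted p = 0.0178; -1.24 in the uniform orientation). The call was lost without replicate 3 (limma adjusted p = 0.172). The mug97 value on replicate 3 rests on 1 spot, which read 1120 in the immunoprecipitate with a local background of 1472. Its duplicate read 0 there. With local background subtracted, mug97 had too few arrays for a test. Its immunoprecipitate exceeded the limit on 1 array. The coding feature of atd3, whose intergenic feature is counted above under meu8, gave 0.30, 0.91 and 0.82 (mean 0.68, adjusted p = 0.145; 0.07 in the uniform orientation). The atd3 value on replicate 3 rests on 1 spot. The intergenic feature of wtf3 (meu9) gave 1.00, 0.43 and 1.43 (mean 0.95 ± 0.50; adjusted p = 0.068; 0.67 in the uniform orientation). The wtf genes form a family that holds spore killers. Their DNA may hybridise to each other's spots, which was not tested. The intergenic feature of wtf11 (meu24) gave 0.90 and 1.53 on replicates 1 and 2, and that of its divergent neighbour gst4 gave 1.21, 1.51 and 1.29 (mean 1.34 ± 0.15; adjusted p = 0.0150; 0.33 in the uniform orientation). The wtf11 value on replicate 1 rests on 1 spot. The remaining features of these genes, those of bgs2, spn5 and mde5 among them, were not called or had too few arrays for a test.

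A list of 70 genes of meiosis and sporulation had 68 with a feature, members' own features left out. Among 16 tested intergenic features 3 were enriched and 0 depleted, against 19.7% and 0.904% of all tested intergenic features. The enriched ones were those of psy1, the forespore-membrane syntaxin (1.34, 0.81 and 1.09; mean 1.08 ± 0.26; 0.54 in the uniform orientation), mcp7, whose protein partners that of meu13 (1.27, 1.56 and 0.97; 1.27 ± 0.29; 0.23 in that orientation), and rsv2, a sporulation transcription factor (2.07, 2.64 and 1.99; 2.24 ± 0.35; 0.47 in that orientation). Among 32 tested coding features, against shares of 2.42% enriched and 7.96% depleted over all tested coding features, 2 were enriched, ssm4, a dynactin subunit (1.80, 1.59 and 1.59; 1.66 ± 0.12; 0.60 in that orientation), and isp3. The 4 depleted coding features were those of rec8, the meiotic cohesin subunit (-2.11 ± 1.05), the shugoshin gene sgo1 (-1.51 ± 0.84), spo6, the regulatory subunit of the Spo4 kinase (-1.32 ± 1.01), and mok12, an alpha-glucan synthase gene (-1.26 ± 0.25). Their means in the uniform orientation were -1.50, -0.88, -1.21 and -0.53. In that orientation, none of the called features of this list passed (limma adjusted p of 0.777 and above).

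The mug genes, a later series of meiotically up-regulated genes, served as the larger family, with 86 on the array. Among their 21 tested intergenic features 8 were enriched and 1 was depleted, against 19.7% and 0.904% of all tested intergenic features. Among 49 tested coding features 6 were enriched and 3 depleted, against 2.42% and 7.96% of all tested coding features. In the uniform orientation 0 of these features were called, as over the whole array. The 3 highest intergenic means were 3.03 ± 0.42 at mug24, 2.40 ± 0.66 at mug153 and 1.70 ± 1.26 at mug115 (SD, n = 3), which were 0.69, 0.31 and -0.22 in that orientation. The 3 highest coding means were 2.70 ± 0.88 at mug114, 2.37 ± 0.40 at mug115 and 2.08 ± 0.80 at mug14, which were 0.22, 0.51 and 0.09. The genes isp3, bgs2, spn5, mde5 and crp79 on the meiosis list and mug97 among the mug genes also count among the older meu names. Whether the meu features differ from either list was not tested.

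GTAAACA and the ratio were set side by side on replicate 2. The 10 intergenic features of meu genes with GTAAACA ranged from -0.75 to 0.83 with a median of -0.06, and the 10 without it from -0.29 to 2.23 with a median of 0.16. Over all intergenic features these medians were 0.06 with the motif (668 features) and 0.05 without it (3857). The meu10 and meu15 windows were without GTAAACA. Each window covers only the end of the gap next to its gene. At the other end of these gaps, the xks1 window facing meu15 held GTAAACA and the cbf12 window facing meu10 did not. The values are a description and had no test.

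**Figure D5:**
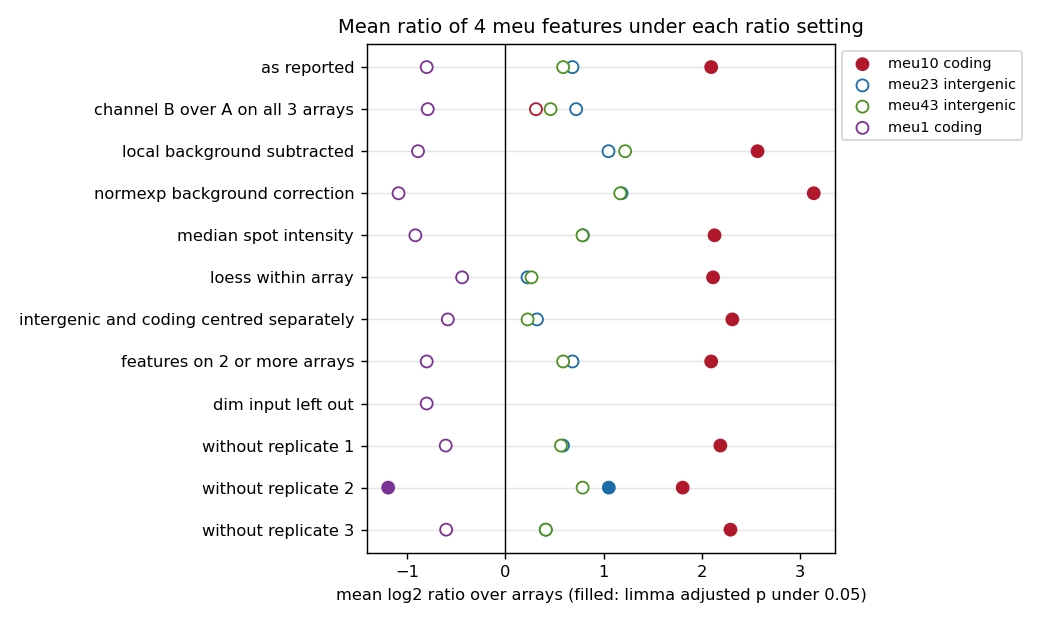
Mean log2 ratio over arrays of 4 meu features under the reported processing and each alternative that forms a ratio, with filled points where the limma adjusted p is under 0.05. The meu10 coding feature is filled in 10 of the 11 settings that tested it, and open in the uniform orientation. It has no point where dim input was left out.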

How the data were processed

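The authors, per the file headers and labels, scanned 3 two-colour arrays and quantified them with TIGR Spotfinder, and deposited spot intensity per channel with local background and flags. The sources used here do not state whether background had been subtracted, where the probes lie or on which build. The authors' deposited log10 values, per the labels median-normalised in GeneSpring, matched (within 0.006) channel B's intensity at 99.9% and 99.8% of comparable spots on replicates 1 and 3 and channel A's at 99.6% on replicate 2, each a single channel and not a ratio. They had a floor of -2 at 6300, 1445 and 6733 spots and medians of 0.01, -0.04 and 0.02.

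Ratios used the integrated intensities without further background subtraction. Spots at 0 in either channel were left out, log2 ratios were centred on the array's median over feature spots, and spots were averaged per feature. The 3960 features with a ratio on 3 arrays were fitted against 0 with limma 3.58.1 (R 4.3.3; prior SD 0.547, prior degrees of freedom 8.08), with Benjamini-Hochberg adjustment over all of them. On simulated data for this comparison, with 200 of 3960 features shifted, the fit recovered 8.96% of the features shifted by 1 (log2), 91.0% of those shifted by 2 and 100% of those shifted by 3, and 6.34% of its calls were false. The simulation drew independent noise of equal spread on the 3 arrays, with unshifted features centred on 0. The real arrays had unequal SDs over features (1.03, 0.70 and 1.05), so these rates describe the simulated setting alone. The arrays are separate experiments per the labels, and their number limits the precision.

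Members and gene lists were chosen with earlier results of these data known. The rule for naming was as follows: every meu feature with its values on each array, and full statistics for called members, for the 3 highest and 3 lowest means of each kind and for genes with both features measured. Called features of the meiosis list, the 3 highest of each kind among the mug genes, and genes sharing a region with a member were also named. Lists were counted and not tested. Alternatives were the orientation of replicate 2, local background subtraction, normexp, median intensity, loess, separate centring, a filter on 2 arrays, a filter on dim input, the deposited values, other list thresholds and each replicate left out. Slide was no possible block, since each array is its own slide.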

Additional observations from a re-analysis of the deposited data

Results flagged for a closer look

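Signals without a ratio were also read at the meu features. At 4 of them the immunoprecipitate channel exceeded the array's negative-control limit (1959 on replicate 1, 4452 on replicate 3) while input had no signal, so they entered no ratio. The meu32 intergenic feature read 7414 on replicate 1, the mean of spots at 13335 and 1493, the latter below the limit. Its value on replicate 2 was 0.51. The meu15 intergenic feature read 2029.5 on replicate 1, close above the limit, with 0.95 on replicate 2. The meu17 coding feature read 4825 on replicate 3, the mean of spots at 6949 and 2701, the latter below the limit. Its value on replicate 2 was -0.13. The meu25 coding feature read 2001 on replicate 1 from 1 spot, its duplicate having no signal, with 0.15 on replicate 2. No replicate agreement can be given for these 4 signals.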

How the results depend on the processing

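In the uniform orientation, channel B on top on every array, no meu feature and no other feature was called: enriched counts fell to 0 (1 meu, 327 in all, 5 of the meiosis list and 14 mug features as reported), and depleted counts to 0 (0, 222, 4 and 4 as reported); limma gave 138 of 3960 an unadjusted p under 0.05, and the binding list held 3 meu features in place of 5. The authors' deposited values are single-channel intensities, so that a fit of them against 0 does not bear on enrichment and their signs say nothing of the ratio. That fit gave 0 calls (597 of 7198 with an unadjusted p under 0.05), 1 meu feature on the list and a median of 0.0277 over intergenic meu features, against 0.59 as reported. Local background subtraction gave 135 enriched and 7 depleted in all, 2 and 0 of the meiosis list, 8 and 0 of the mug genes, and an intergenic meu median of 1.05, while normexp gave a median of 1.17 and loess and separate centring gave 0.23 each. Median spot intensity gave 363 depleted in all. Separate centring gave 3 enriched of the meiosis list and a coding meu median of 0.31, and loess a coding meu median of -0.22, against 0.09 as reported. Leaving out dim input dropped the meu10 coding feature from the fit, with 0 meu, 0 meiosis, 4 mug and 56 of all features enriched, and medians of -0.51 and -0.56 over the intergenic and coding meu features left. The stricter list (90th percentile) held 3 meu features.

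Leaving out each replicate in turn gave 1 to 2 meu features enriched and 0 to 1 depleted. It gave 209 to 331 enriched and 9 to 548 depleted in all, 3 to 6 and 1 to 7 of the meiosis list, and 9 to 13 and 0 to 6 of the mug genes. Depleted counts in all were 58 without replicate 1, 548 without replicate 2 and 9 without replicate 3, and the low of 209 enriched was without replicate 3. The list held 3 to 5 meu features, 3 without replicate 2. The medians were 0.41 to 0.79 for intergenic and -0.05 to 0.04 for coding meu features. Without replicate 2, the meu23 intergenic feature (mean 1.05, adjusted p = 0.0476) and the meu1 coding feature (mean -1.19, adjusted p = 0.0325) passed. The meu10 coding feature was called in 10 of the 11 ratio settings that tested it, and the filter on dim input left it out. Its ratio means ran from 0.31 to 3.14, with limma adjusted p of 4.1e-05 to 0.946.

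The called means of meu10, cbf12, xks1, isp3, ght6 and mug97 kept their sign under the settings that tested them, whereas that of the mug115 intergenic feature was -0.22 in the uniform orientation. The cbf12 and mug97 features were not tested with local background subtracted. Of the features named before mug115, only mug97 was tested with dim input left out. Intergenic minus coding, which had no call, turned under separate centring (-0.2847 for meu1, -0.2095 for meu43), moved to 0.0085 for meu1 in the uniform orientation and to 0.0349 with normexp, and with each replicate left out ran from 0.22 to 0.43 for meu1 and from 0.10 to 0.54 for meu43. The single-channel deposited values lay on the other side of 0 from the ratio for meu43 intergenic (-0.0055) and the coding features of meu1 (0.15), meu34 (-0.26), meu43 (-0.44), meu18 (0.11) and meu6 (0.30). In the uniform orientation they were the coding features of meu34 (-0.0421) and meu7 (0.11). Under normexp it was meu34 (-0.0457), and under loess meu34 (-0.17) and meu22 (-0.22). With each replicate left out in turn, the coding means ran from -0.0054 to 0.25 for meu34, from -0.0472 to 0.47 for meu43 and from -0.26 to 0.42 for meu14, each below 0 without replicate 1 (meu34) or replicate 3 (meu43, meu14). No paired analysis was possible because all 3 arrays belong to 1 group. Signal over background limited replicates 1 and 3, where most intergenic meu features had no input signal.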
